A study of Homo sapiens with 4 samples.

Results

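This comparison set the MKN28 library expressing the 3NQ form of KIAA1324 beside the library labelled ΔTM, gene by gene. Of the 23362 genes in the deposited table, 11526 reached an FPKM (fragments scaled to transcript length and to the size of the library) of 1 or more in either library, and these genes were compared. The measure was the log2 ratio of 3NQ over labelled ΔTM after adding 1 to each FPKM. A gene was called when this ratio passed 1.5-fold, which is 0.585 on the log2 scale.

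MKN28 is a human gastric adenocarcinoma cell line. The study introduced doxycycline-inducible (tet-on) constructs by retrovirus and compared cells carrying luciferase (Luc), wild-type KIAA1324 (WT), KIAA1324 with asparagine changed to glutamine at its 3 N-glycosylation sites (3NQ), and KIAA1324 without its transmembrane domain (ΔTM). RNA from each of the 4 lines was sequenced once, so every comparison has 1 library a side, no error between replicates and no test. The dose and duration of doxycycline before RNA extraction are not given in the sources used here. A difference between 2 such lines can come from the construct, from the line or from the library, and these cannot be told apart.

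KIAA1324, also known as ELAPOR1, encodes a transmembrane glycoprotein of the secretory pathway that is described as a tumor suppressor in gastric cancer. N-linked glycans are attached to asparagine in the endoplasmic reticulum (ER) and help newly made proteins to fold and to leave the ER. A membrane protein without its glycans can be retained there, and one without its transmembrane domain is no longer anchored in the membrane.

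KIAA1324 itself differed more than most genes. Its gene lies on the plus strand of chromosome 1 at chr1:109656301-109749401 (GRCh37). The FPKM values were 2.86 (Luc), 11185 (WT) and 8197 (3NQ), and the library labelled ΔTM listed it at 0. The last value goes against the label, since a construct that lacks 1 domain should still give KIAA1324 reads. An FPKM listed as 0 can be a failed estimate of the software, and no ratio is given for this gene. The library is therefore called by its label throughout, and whether it expressed the ΔTM construct cannot be told from these values.

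The libraries were otherwise close. The FPKM summed to 585104 (3NQ) and 560540 (labelled ΔTM), and the 10 most abundant genes took 10.8% and 6.72% of it. In 3NQ both figures include IMMP1L (22515) and KIAA1324 (8197), which stood at 18.2 and 0 in the library labelled ΔTM. All 8 epithelial markers passed the filter, while COL1A1 was the only one of 10 fibroblast markers, CD68 the only one of 10 immune markers and no endothelial marker passed it. The median log2 ratio over the tested genes was 0.02, with quartiles of -0.12 and 0.15, and 78.0% of genes lay within 1.2-fold. In all, 54.4% of tested genes had a ratio above 0.

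Of the 11526 tested genes, 172 were higher in 3NQ (1.49%) and 220 were lower (1.91%), together 3.40%. At 2-fold, 47 genes were higher and 59 lower, and at 4-fold, 15 were higher and 17 lower. Calls were more frequent at low level. Among genes with a mean FPKM below 5 over the pair, 7.62% were called, against 2.03% from 5 to 50 and 2.74% above 50. Called genes were also shorter. Their median annotated transcript length was 849 bases for higher and 804.5 bases for lower genes, against 1134 bases for genes not called. For scale, the same fold rule called 6.73% of genes between Luc and WT, 4.35% between Luc and 3NQ, 3.10% between Luc and the library labelled ΔTM, 4.48% between WT and 3NQ and 7.25% between WT and the library labelled ΔTM. The share called between 3NQ and the library labelled ΔTM was thus the second lowest of the 6 pairs.

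**Figure D1:**
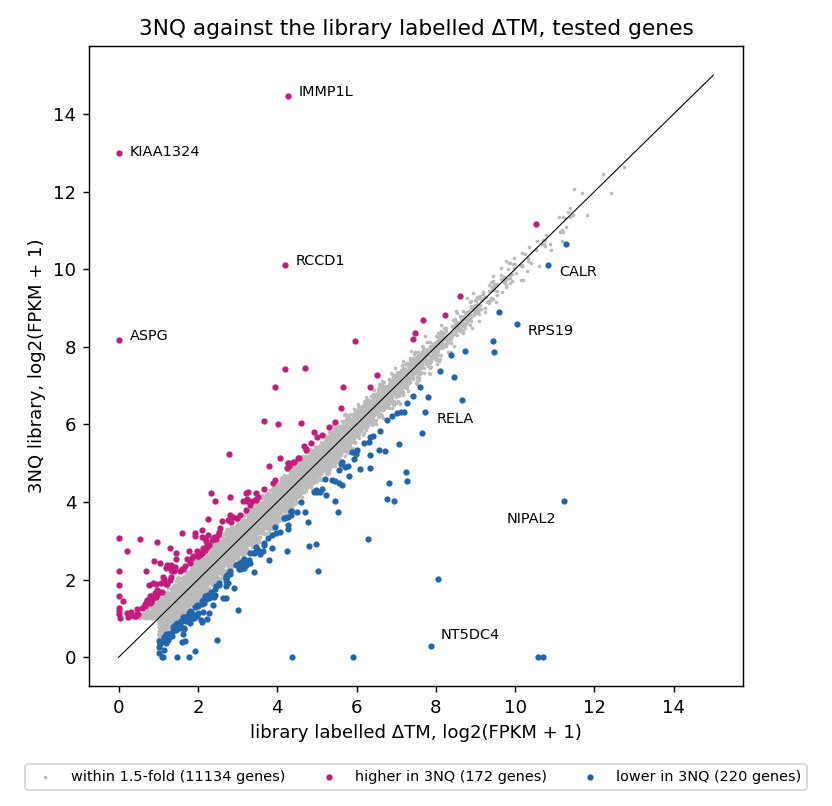
Level of each tested gene in the library labelled ΔTM (x axis) and in the 3NQ library (y axis), both as log2(FPKM + 1), with the line of equal level. The 172 higher and 220 lower genes are coloured, and KIAA1324, IMMP1L, RCCD1 and ASPG stand farthest above the line.

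The threshold cut through a continuous distribution. Just inside it, GNAI1 had a log2 ratio of 0.59, and just outside it NRP1 had 0.58. On the other side, RP11-61A14.1 was just inside at -0.59 and SLC25A26 just outside at -0.58.

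The most extreme ratios mostly came from 1 library standing apart. These are the 10 highest and 10 lowest ratios among genes that reached an FPKM of 5 in either library and were above 0 in both. The 10 highest genes were all highest in 3NQ of the 4 libraries, and the 10 lowest were all highest in the library labelled ΔTM. The other 3 libraries lay within 1.5-fold of each other for 6 of the former and 7 of the latter.

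IMMP1L, which encodes a subunit of the mitochondrial inner membrane peptidase (chr11:31453948-31531192, minus strand), had an FPKM of 9820 (Luc), 5656 (WT), 22515 (3NQ) and 18.2 (labelled ΔTM). Here the library labelled ΔTM was the low one, since Luc and WT were also high. RCCD1, a chromatin-associated protein gene, had 19.0 (Luc), 12.4 (WT), 1095 (3NQ) and 17.2 (labelled ΔTM). MLLT10, a cofactor of histone methylation, had 17.2, 16.5, 170.1 and 17.3 in the same order. Both stood out in 3NQ alone. LRBA, which acts in vesicle trafficking, was spread over all 4 libraries, at 106.6 (Luc), 74.8 (WT), 173.7 (3NQ) and 24.97 (labelled ΔTM). HIVEP2, a zinc finger transcription factor gene, was high in Luc (31.4) and 3NQ (37.02) and low in WT (7.78) and the library labelled ΔTM (5.93). The other genes of this group were GRAMD4, AC007319.1, ZBTB20, INTS10 and MGLL, with log2 ratios from 2.18 to 3.01.

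At the other end, NT5DC4 had an FPKM of 0.211 (Luc), 0.118 (WT), 0.219 (3NQ) and 235.8 (labelled ΔTM). NIPAL2, a gene of a magnesium transporter family, had 10.4, 13.6, 15.3 and 2403 in the same order, and FBXL16, an F-box protein gene, had 3.49, 4.24, 3.08 and 263.6. For all 3 genes the library labelled ΔTM stood alone. The remaining genes were UIMC1, TMEM105, AL035252.1, MTO1, EPB41L1, SLC25A13 and TLN2, with log2 ratios from -3.24 to -2.33. TMEM105 was the one among them with a low Luc value, at 1.69 against 14.5 (WT), 15.3 (3NQ) and 122.8 (labelled ΔTM).

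**Figure D2:**
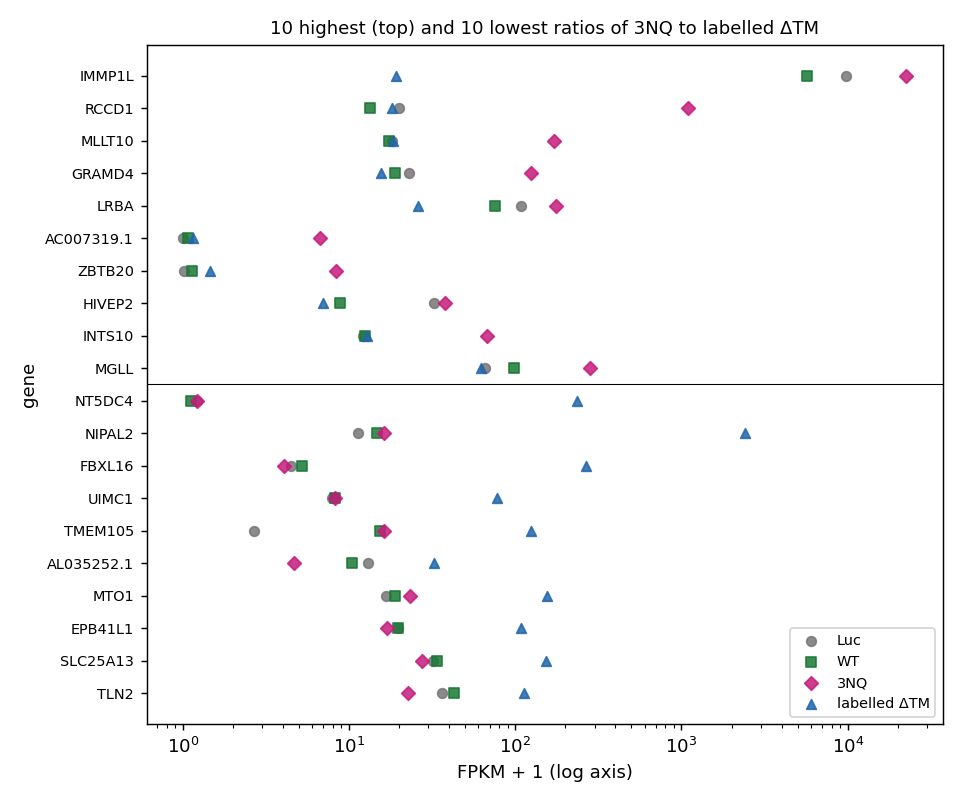
FPKM + 1 (log axis) in each of the 4 libraries for the 10 highest (above the line) and the 10 lowest ratios. In most rows 3 symbols lie close together and 1 lies far to the right, 3NQ above the line and the library labelled ΔTM below it.

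A few genes were listed at 0 on one side. In addition to KIAA1324, the library labelled ΔTM listed ASPG at 0, with an FPKM of 289.6 in 3NQ, 0.02 in Luc and a further 0 in WT. C1orf134, RP11-481K16.2 and AL354718.1 were also at 0 there, with 7.38, 3.71 and 1.99 in 3NQ. The 3NQ library listed AP000758.1 at 0, where Luc had 1318, WT 1649 and the library labelled ΔTM 1654. It also listed SNORA71A and UBE2DNL at 0, as did Luc and WT, against 1516 and 59.0 in the library labelled ΔTM. In all, 6 tested genes were at 0 only in 3NQ of the pair and 6 only in the library labelled ΔTM, and these count among the called genes where the other value passed 1.5-fold after adding 1.

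Genes of cholesterol and fatty acid synthesis had the lowest median of the 35 lists with at least 3 tested members, except with a pseudocount of 0.1, where replication-dependent histone genes were lower (-0.30 against -0.28). Cells make cholesterol from acetyl-CoA through the mevalonate pathway. The transcription factor SREBP2 leaves the ER for the Golgi when sterols are low and turns these genes on, while INSIG proteins hold it in the ER. Of the 36 tested members, 4 were lower in 3NQ by the fold rule and none was higher, against 1.91% and 1.49% of all tested genes. The median log2 ratio was -0.27, against 0.02 over all tested genes, and 29 of the 36 ratios were below 0, where 54.4% of all tested genes were above it.

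INSIG1, the sterol-dependent anchor of SREBP2 and itself one of its targets (chr7:155089486-155101945, plus strand), had an FPKM of 54.2 (Luc), 26.2 (WT), 22.9 (3NQ) and 40.5 (labelled ΔTM), a log2 ratio of -0.79. TM7SF2, a sterol reductase of the pathway, had 19.9, 13.0, 11.2 and 18.5 in the same order (-0.67). In both genes 3NQ was the lowest library, WT the next, and Luc the highest. With a pseudocount of 5 TM7SF2 was no longer called (-0.53). SCD, the desaturase that makes monounsaturated fatty acids, had 204.3 (Luc), 165.7 (WT), 123.9 (3NQ) and 194.3 (labelled ΔTM) (-0.64), which is the same order.

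Other enzymes of the pathway lay below 0 without passing 1.5-fold. HMGCS1, which makes HMG-CoA, had a log2 ratio of -0.45, SQLE, the squalene epoxidase, -0.44, LSS, the lanosterol synthase, -0.51, and FDFT1, the squalene synthase, -0.40. SREBF2, which encodes SREBP2, had -0.19, SREBF1 0.06 and SCAP, the escort of SREBP2, 0.04. INSIG2, a relative of INSIG1, was the highest member at 0.45, with 27.5 in the library labelled ΔTM and 37.8 in 3NQ. FASN, the fatty acid synthase, had 0.04.

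NF-kappa B genes had the highest median of these lists. NF-kappa B dimers are held in the cytoplasm by inhibitor proteins until IKK kinases mark these for breakdown, and then switch on cytokines, survival genes and their own inhibitors. Of the 35 tested members, 6 were higher in 3NQ and 1 was lower, against 1.49% and 1.91% of all tested genes. The median log2 ratio was 0.31, and 28 of the 35 ratios were above 0, against 54.4% of all tested genes. The 15 members with an FPKM below 1 in both libraries were not tested.

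Promoters were searched for the letters GGNNTTTCC, a loose form of the kappa B site, on both strands (reverse complement GGAAANNCC), in RefSeq windows that run from upstream of the gene's start to just past it (GRCh38.p14). Windows were at hand for 30 of the 35 members, and 13 of them (43.3%) held the letters, against 6.26% of all 27305 windows and 6.84% of those of tested genes. Such targets were in part named for these sites, so the share describes the list. Of the 7 called members 3 held the letters, and these are shown because they carry the highest cytokine ratios of the list, with the match in capitals, each 5′ to 3′ along the gene. The windows are chr4:73740453-73740511 for IL8, chr2:227813738-227813796 for CCL20 and chr16:3065280-3065338 for IL32, all on the plus strand.
IL8: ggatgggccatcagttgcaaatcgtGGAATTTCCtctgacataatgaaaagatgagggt
CCL20: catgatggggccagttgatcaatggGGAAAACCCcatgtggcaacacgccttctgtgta
IL32: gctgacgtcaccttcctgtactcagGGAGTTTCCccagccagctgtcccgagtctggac

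The called target genes encode secreted proteins and a signalling adaptor. IL8, also named CXCL8, a neutrophil chemokine, had an FPKM of 5.88 (Luc), 21.4 (WT), 17.8 (3NQ) and 8.25 (labelled ΔTM), a log2 ratio of 1.03. CCL20, a chemokine for dendritic cells and lymphocytes, had 0.445, 1.88, 1.24 and 0.241 in the same order (0.85), and IL1A, the interleukin-1 alpha gene, had 2.83, 6.66, 6.04 and 3.38 (0.68). In these 3 genes WT was the highest library and 3NQ the next. LCN2, the iron-siderophore binding lipocalin, had 2.90, 3.68, 7.70 and 2.78 (1.205), so that 3NQ stood alone. IL32, a pro-inflammatory cytokine, had 21.97, 28.5, 31.2 and 18.4 (0.73), and TRAF1, an adaptor of TNF receptors, had 0.742, 2.22, 1.73 and 0.698 (0.68). CCL20 and TRAF1 were near the FPKM filter of 1, which they passed through 3NQ alone. With a pseudocount of 5, CCL20 (0.25), IL1A (0.40) and TRAF1 (0.24) were no longer called.

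The subunits did not follow one direction. RELA, the main transactivating subunit (chr11:65421067-65430565, minus strand), was the lower gene of the list, with 159.9 (Luc), 154.4 (WT), 78.9 (3NQ) and 212.7 (labelled ΔTM), a log2 ratio of -1.42. NFKB1 had 0.24, NFKB2 0.31, REL 0.38 and RELB 0.38, none past the threshold. Among the inhibitors and feedback genes, NFKBIA had 0.23, NFKBIE 0.55, TNFAIP3 0.17 and BIRC3 0.45. IKBKB, a kinase that releases NF-kappa B, had -0.29.

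**Figure D3:**
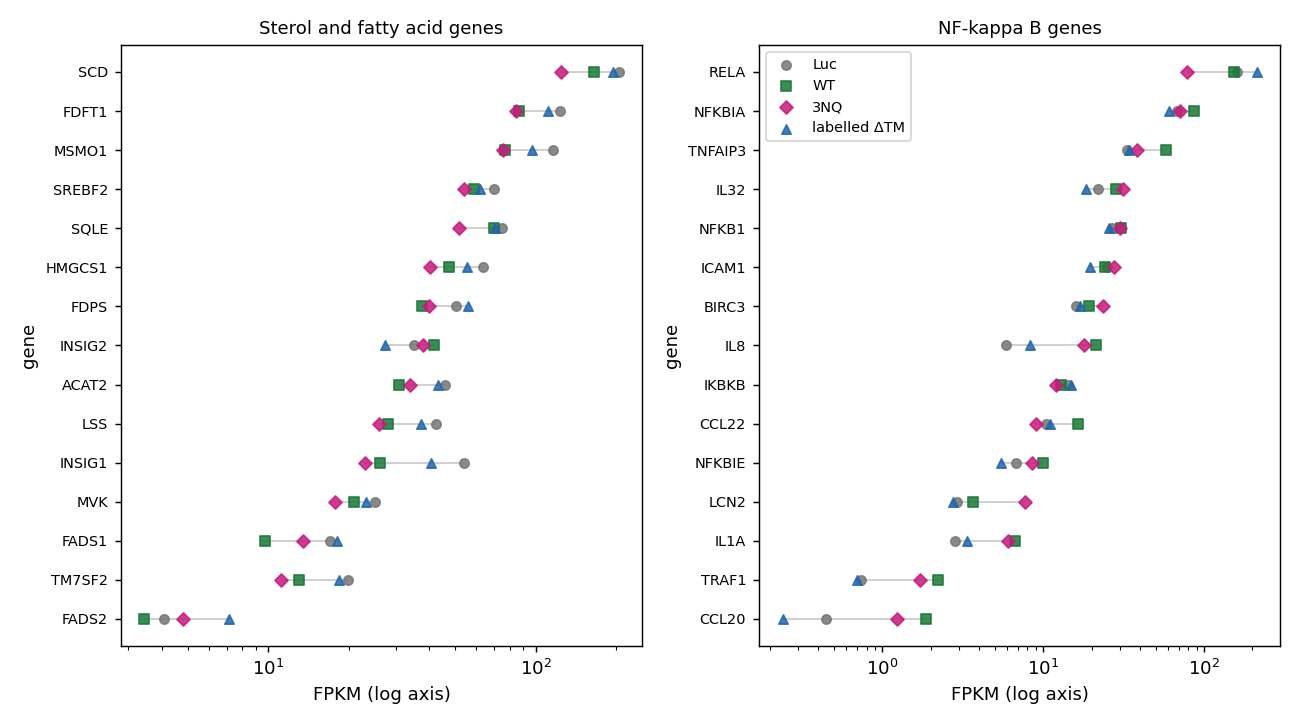
FPKM (log axis) in each of the 4 libraries for genes of the cholesterol and fatty acid list (left) and of the NF-kappa B list (right), chosen after their values were seen. INSIG1, TM7SF2 and SCD are lowest in 3NQ and IL8, IL1A, CCL20 and TRAF1 are highest in WT with 3NQ next, while RELA is lowest in 3NQ.

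The search for CACCCCAC, the core of a sterol regulatory element, gave no such picture in the cholesterol list. Of the 27 members with a window 1 held it, SREBF2, against 2.72% of all windows and 2.43% of those of tested genes, and none of the 3 called members with a window did. The match in SREBF2 is shown, from chr22:41832948-41833005 on the plus strand (GRCh38.p14, RefSeq), with the letters in capitals.
SREBF2: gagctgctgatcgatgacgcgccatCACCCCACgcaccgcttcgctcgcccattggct
These letters are one spelling of a variable element, and their absence from a window says only that.

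The listed genes of cell division were slightly lower in 3NQ as a group, with few calls. DNA replication needs the MCM helicase, the GINS and CDC45 proteins and the polymerases, and mitosis needs the spindle and kinetochore proteins. Both sets are made mainly in dividing cells, and in bulk RNA fewer dividing cells and less RNA in each cannot be told apart. Of 42 tested replication genes, 1 was lower and none higher, against 1.91% and 1.49% of all tested genes. Their median log2 ratio was -0.14 and 36 of 42 ratios were below 0, where 54.4% of all tested genes were above it. GINS4, a subunit of the GINS complex, was the lower one, at 30.6 (Luc), 20.9 (WT), 22.5 (3NQ) and 42.6 (labelled ΔTM) (-0.89). Of 50 tested mitotic genes, 1 was lower and none higher, against the same shares, with a median of -0.12 and 44 of 50 ratios below 0. CENPE, a kinetochore motor, was the lower one, at 13.2, 10.7, 8.44 and 15.8 (-0.83). Mitotic genes outside the list, named after their values were seen, went both ways. NUMA1 (124.3 against 49.8 FPKM, 1.30), CENPN (85.5 against 47.5, 0.83) and PMF1 (0.60) were higher, and NSL1 (-0.81), SGOL1 (-0.62) and HAUS4 (-0.61) lower. Of these NUMA1, CENPN and NSL1 stayed called with a pseudocount of 5. WT was the lowest library in 47 of the 50 mitotic genes and 3NQ in the other 3, while Luc was the highest in 47.

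The letters TTTNNCGC of an E2F-type site, read on both strands, were found in 21 of 35 replication gene windows (60.0%), against 6.90% of all windows and 11.1% of those of tested genes. As for the kappa B letters, these genes are classical E2F targets and the share describes the list. The window of LIG1, the replicative DNA ligase gene, is shown as one with a log2 ratio below 0 (-0.25), at chr19:48170426-48170483 on the minus strand (GRCh38.p14, RefSeq).
LIG1: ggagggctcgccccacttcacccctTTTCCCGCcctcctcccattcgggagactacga

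Cell cycle regulators varied individually. CCND2, a G1 cyclin, was higher in 3NQ at an FPKM of 1.57 against 0.587, and it was the single called gene of 29 G1 cyclins, kinases, E2F and RB genes, whose median was -0.06. It passed the FPKM filter through 3NQ alone and was no longer called with a pseudocount of 5 (0.23). E2F1, the G1/S transcription factor, had 34.7 (Luc), 19.1 (WT), 25.5 (3NQ) and 33.4 (labelled ΔTM) (-0.38). CDKN1A, the p21 inhibitor, had 48.8, 83.6, 56.4 and 46.6 (0.27), and GADD45A, a stress-induced gene, had 23.4, 36.8, 28.1 and 29.1 (-0.05). None of 29 inhibitors and p53 targets was called, where 3.40% of all tested genes were.

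Folding genes of the ER were high in both libraries rather than in one. ER chaperones bind proteins that are not yet folded and are induced by the unfolded protein response. Of 29 tested members, 3NQ was the highest of the 4 libraries in 11 and the library labelled ΔTM in 16, and the list's summed FPKM was 4378 (Luc), 4710 (WT), 7739 (3NQ) and 8661 (labelled ΔTM). HSPA5, the chaperone GRP78, had an FPKM of 318.1 (Luc), 520.9 (WT), 1114 (3NQ) and 1028 (labelled ΔTM), and HYOU1, a chaperone of the HSP110 family, had 137.7, 164.9, 357.5 and 392.7. These genes therefore set both libraries apart from Luc and WT and differed little between them, at log2 ratios of 0.12 for HSPA5 and -0.13 for HYOU1.

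Between both libraries 1 chaperone was higher and 1 lower of 29 tested, against 1.49% and 1.91% of all tested genes. The list median was -0.08. DNAJB9, an ER co-chaperone, had 13.0 (Luc), 29.8 (WT), 39.2 (3NQ) and 25.5 (labelled ΔTM) (0.60), and was no longer called with a pseudocount of 5 (0.53) or under the 3 other scalings. CALR, the calcium-binding lectin chaperone calreticulin, had 757.1, 692.8, 1107 and 1830 (-0.72). CRELD2 (-0.53), SDF2L1 (-0.46), MANF (-0.42) and HSP90B1 (-0.37) were on the side of CALR without passing the threshold. None of 27 sensors and ER-associated degradation genes was called, where 3.40% of all tested genes were, and XBP1 had a log2 ratio of -0.07.

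The ATF4 branch handles amino acid supply and is switched on by several kinases of the stress response. Of 39 tested members 3 were higher in 3NQ and none lower, against 1.49% and 1.91% of all tested genes, with a median of 0.19 and 28 ratios above 0, against 54.4% of all tested genes. SLC7A11, the cystine transporter, had an FPKM of 11.5 (Luc), 15.4 (WT), 19.4 (3NQ) and 11.8 (labelled ΔTM) (0.67). CHAC1, a glutathione-degrading enzyme, had 11.8, 23.1, 15.2 and 9.26 (0.66), and SLC1A4, a neutral amino acid transporter, had 2.49, 4.45, 5.26 and 3.00 (0.65). The library labelled ΔTM was near Luc in all 3. With a pseudocount of 5 none of them was called, at 0.54 for SLC7A11, 0.51 for CHAC1 and 0.36 for SLC1A4. ATF4 itself had -0.21 and DDIT3, the transcription factor CHOP, 0.01, with DDIT3 near 20 in WT, 3NQ and the library labelled ΔTM (21.1, 20.1 and 19.9) and 10.04 in Luc.

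The listed vesicle transport and immediate-early genes lay mostly above 0, where 54.4% of all tested genes did. Few of them were called, where 3.40% of all tested genes were. Of 38 tested COPI, COPII and Golgi genes, which carry proteins between ER and Golgi, 31 had ratios above 0, with a median of 0.13. The single called gene was USO1, a vesicle tether, and it was lower in 3NQ (219.3 against 334.6, -0.61). GOLGB1, a giant Golgi tether, was the highest of the list at 0.42. Vesicle transport genes outside the list, named after their values were seen, went both ways. VPS53 (15.3 against 8.21 FPKM, 0.82), RAB30 (0.76), TMED7 (0.61) and GOSR1 (0.59) were higher, and SNX2 (-1.57), RAB31 (-0.95) and MIA2 (-0.81) lower. Of these VPS53 and SNX2 stayed called with a pseudocount of 5. Of 24 immediate-early and AP-1 genes, 20 had ratios above 0, with a median of 0.19 and no call. ATF3 was the highest at 0.49, and JUN, an AP-1 subunit, had 14.95 (Luc), 31.8 (WT), 24.6 (3NQ) and 18.3 (labelled ΔTM) (0.41).

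Of 41 tested N-glycan assembly and processing genes 2 were higher and none lower, a share near the 3.40% of all tested genes called, with a median of 0.00. MGAT5, which adds a branch to complex N-glycans, had 43.7 (Luc), 38.6 (WT), 44.9 (3NQ) and 28.03 (labelled ΔTM) (0.66), and ALG2, an early mannosyltransferase, had 29.0, 49.3, 59.7 and 38.8 (0.61). ALG2 was no longer called with a pseudocount of 5 (0.56) or under 2 of the scalings. None of 17 fucosylation genes was called, where 3.40% of all tested genes were. FUT8, the core fucosyltransferase, had 27.6, 19.3, 17.5 and 21.5 (-0.29), FUT2 had -0.52 and TSTA3, of GDP-fucose synthesis, 0.30.

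No listed apoptosis gene was called among 38 tested, which at the 3.40% of all tested genes says little about the list, and the median was 0.05. Outside the list, named after their values were seen, TNFRSF25 was higher (0.69) and AIFM3 lower (-0.71). Neither was called with a pseudocount of 5 (0.24 and -0.25). MAPK8, the kinase JNK1, had an FPKM of 33.7 in 3NQ against 30.4 (0.15). The extremes of the list were BIRC5, the mitotic survivin (-0.41), and BIRC3 (0.45). Of 24 JNK and p38 kinase and scaffold genes, MAP2K6 was lower (-0.63, and -0.34 with a pseudocount of 5, where it was not called). Of 24 genes of the insulin and IGF axis, IGF2, a growth factor gene, was lower at 2.80 against 5.75 (-0.83), and PIK3CA, a catalytic PI3-kinase subunit, at 30.8 against 48.0 (-0.62). Over all tested genes 1.91% were lower. Neither IGF2 nor PIK3CA was called with a pseudocount of 5, at -0.46 and -0.56. The receptors INSR (-0.02) and IGF1R (-0.01) were near equal.

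The remaining genes named in the study's own results were also close between both libraries. IRF3 had a log2 ratio of -0.06, FOXA1 of 0.17 and NR2C2 of -0.28. CDKN1C was below the filter in both, at 0.726 and 0.826, and TAL1 was listed at 0 in 3NQ and had 0.0255 in the library labelled ΔTM.

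**Figure D4:**
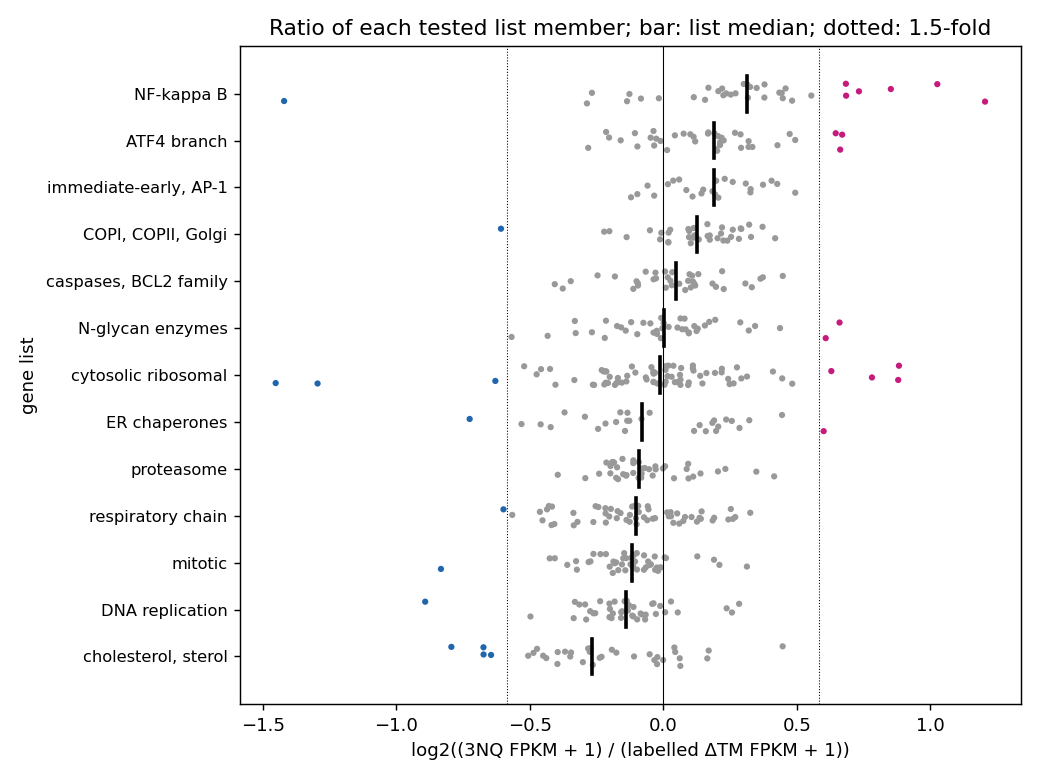
Log2 ratio of 3NQ over labelled ΔTM for every tested member of 13 gene lists (points), with the list median as a bar and the 1.5-fold threshold dotted. The NF-kappa B median lies highest at 0.31 and the cholesterol median lowest at -0.27, while most members of every list stay inside the threshold.

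Housekeeping lists also held called genes, in both directions. Of 77 tested cytosolic ribosomal protein genes 4 were higher and 3 lower, against 1.49% and 1.91% of all tested genes, with a median of -0.01. RPS19 had an FPKM of 464.1 (Luc), 429.9 (WT), 385.2 (3NQ) and 1055 (labelled ΔTM) (-1.45), and RPS21 had 339.8, 273.5, 284.6 and 699.6 (-1.29). RPL27A had 276.0, 310.1, 325.9 and 176.7 (0.88). In all 3 genes the library labelled ΔTM stood apart and the other libraries lay together, and the other 4 called members were RPL17 (0.88), RPL37 (0.78), RPS29 (0.63) and RPL39 (-0.63). Ribosomal protein genes have many near-identical processed copies. The authors' multi-read correction was on, and how well it divided such reads was not tested. Other genes that are close copies of a relative were FKBP1C (63.5 against 15.3 FPKM), MAP1LC3B2 (8.13 against 2.81) and BOLA2B (7.51 against 3.32), which were higher in 3NQ. Of the overlapping genes JMJD7 and JMJD7-PLA2G4B, the former was higher (6.81 against 0.950) and the latter lower (1.31 against 7.13). These 5 genes were named after their values were seen.

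Mitochondrial and proteasome genes lay slightly below 0. Of 60 listed nuclear-encoded respiratory chain genes 1 was lower, against 1.91% of all tested genes. It was NDUFA2 (31.7 against 48.6 FPKM, -0.60, and -0.54 with a pseudocount of 5, where it was not called). The list's median was -0.10 with 39 ratios below 0, where 54.4% of all tested genes were above it. Outside the list ATP5J2 (472.7 against 773.3, -0.71) and NDUFS4 (45.3 against 71.5, -0.65) were also lower, and both stayed called with a pseudocount of 5. UQCR11 had an entry called lower (-0.77) and another called higher (0.60). An entry of NDUFA7 that the list did not count was lower (0.896 against 3.31, -1.19), but not with a pseudocount of 5 (-0.50). The genes and entries outside the list were named after their values were seen. MRPS28 was the lower one of 74 mitochondrial ribosomal genes (21.7 against 45.8, -1.04). None of 41 proteasome genes was called, where 3.40% of all tested genes were, with a median of -0.09 and 30 below 0. An entry of PSMA1 that the list did not count was lower (3.42e-10 against 1.14 FPKM, -1.10, and -0.30 with a pseudocount of 5). Replication-dependent histone genes, which lack poly(A) tails and are read poorly after poly(A) selection, had 2 higher and 6 lower of 28 tested, with a median of -0.22. Over all tested genes 1.49% were higher and 1.91% lower. HIST1H4D, HIST1H4B, HIST1H2BG and HIST1H2AH, among the lower ones, passed the FPKM filter through the library labelled ΔTM alone. So did the histone genes HIST1H2BL and HIST1H1E, also called lower. The higher ones, HIST1H2AE and HIST1H3J, passed it through 3NQ alone, so these calls depend on the filter. With a pseudocount of 5 no histone gene was still called.

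Single genes of the remaining lists passed the threshold. OAS1, an interferon-induced RNA sensor, was higher in 3NQ (10.4 against 5.06 FPKM, 0.91) and BST2, an interferon-induced membrane protein gene, was lower (1.27 against 3.39, -0.95). Of 41 tested interferon genes these were the called ones, a share near the 3.40% of all tested genes called. An entry of TAP2 that the list did not count was also lower (3.56 against 9.60, -1.22), and it stayed called with a pseudocount of 5. GPX2, a glutathione peroxidase gene, was lower (1.56 against 4.17, -1.01). GRHL2, a transcription factor of epithelial junctions, had 65.4 (Luc), 35.2 (WT), 50.3 (3NQ) and 80.4 (labelled ΔTM) (-0.67). DUSP8, a phosphatase of stress kinases, was higher (3.72 against 1.62, 0.85), as was MTF1, the metal-responsive transcription factor (10.2 against 6.13, 0.65), while MT1X, a metallothionein, was lower (23.1 against 35.8, -0.61). With a pseudocount of 5, BST2 (-0.42), GPX2 (-0.48), DUSP8 (0.40), MTF1 (0.45) and MT1X (-0.54) were no longer called. The epithelial marker KRT18 had 3684 (Luc), 2115 (WT), 2673 (3NQ) and 3610 (labelled ΔTM) (-0.43).

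Where Luc and WT lay beside the called genes was then described. Of the 172 higher genes, 3NQ was the highest of the 4 libraries in 116 (67.4%) and the library labelled ΔTM the lowest in 127 (73.8%). Of the 220 lower genes, the library labelled ΔTM was the highest in 174 (79.1%) and 3NQ the lowest in 138 (62.7%). Over all tested genes these shares were 19.4%, 31.8%, 17.1% and 22.8%, but a called gene had to have one of the pair well above the other, so the shares describe the calls and test nothing.

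WT and Luc share no library with this pair, and the 2 comparisons were set side by side. WT was above Luc in 111 of the 172 higher genes (64.5%) and in 70 of the 220 lower genes (31.8%), against 49.0% of all tested genes. Across the 11525 tested genes other than KIAA1324, the log2 ratio of this pair and that of WT over Luc had a Pearson correlation of 0.17 and a Spearman correlation of 0.34. These are descriptions across genes, which are not independent replicates, and all 4 libraries come from 1 study. This comparison was chosen after the values were seen.

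Several lists lay on the same side in both comparisons. In the cholesterol list 27 of 36 genes (75%) were lower in 3NQ than in the library labelled ΔTM and also lower in WT than in Luc, against 29.7% of all tested genes. The median was -0.27 in each comparison. In the NF-kappa B list 25 of 35 genes (71.4%) were higher in both, against 33.2% of all tested genes, with medians of 0.31 and 0.34. In the COPI, COPII and Golgi list 29 of 38 (76.3%) were higher in both, and in the immediate-early list 20 of 24 (83.3%). In the mitotic list 44 of 50 (88.0%) were lower in both, but the sizes were unlike, with medians of -0.12 here and -0.55 for WT against Luc. DNA replication genes gave 34 of 42 (81.0%), with -0.14 and -0.42. Other lists differed in sign. Replication-dependent histone genes had a median of -0.22 here and 0.23 for WT against Luc, and ER chaperones had -0.08 and 0.17. Of the 28 histone genes 5 were lower in both, 10 higher in both and 13 on opposite sides. Over all 11526 tested genes 4285 were on opposite sides.

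**Figure D5:**
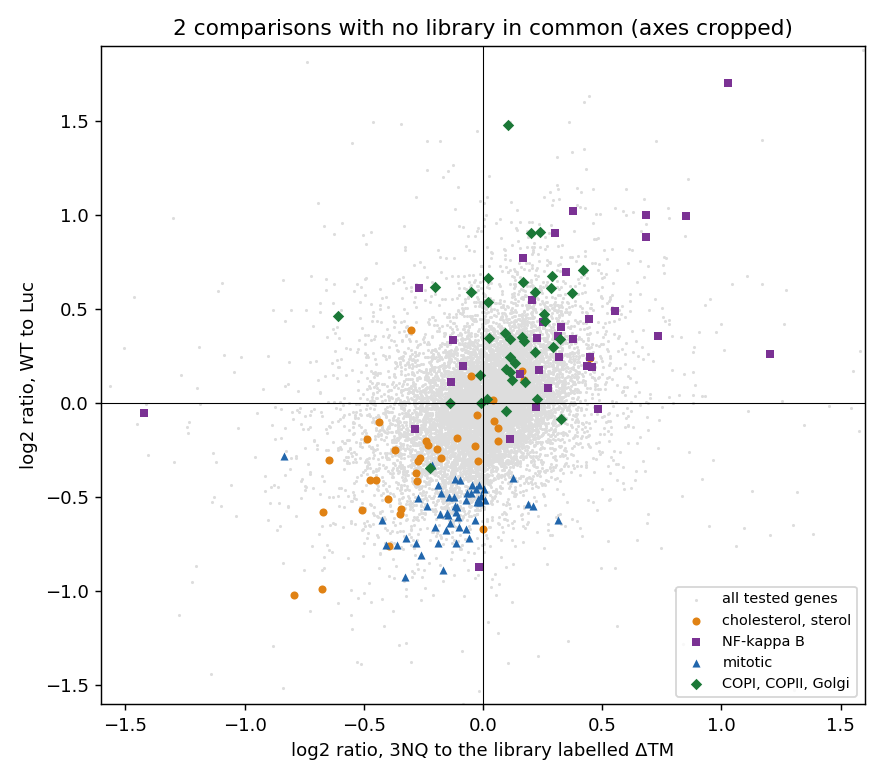
Log2 ratio of 3NQ over labelled ΔTM (x axis) against that of WT over Luc (y axis) for the tested genes, cropped at the axes, with 4 lists coloured. Cholesterol genes lie mainly in the lower left and NF-kappa B and transport genes in the upper right, while mitotic genes lie farther from 0 on the y axis than on the x axis.

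Calls were spread over the chromosomes with some unevenness. Over all tested genes 1.49% were higher and 1.91% lower. Chromosome 19 had 4 higher (0.49%) and 21 lower (2.59%) of 811 tested genes. Chromosome 16 had 15 higher (2.63%) and 9 lower (1.58%) of 570, and the X chromosome had 1 higher (0.29%) and 7 lower (2.03%) of 344. The largest share of lower genes was on chromosome 8 (3.05%) and of higher genes on chromosome 18 (3.82%). Whether these shares differ was not tested. Median ratios of the chromosomes stayed between -0.02 and 0.05.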

How the data were processed

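The authors enriched poly(A) RNA, prepared TruSeq libraries and sequenced them on a HiSeq2500. They filtered reads, mapped them with TopHat to GRCh37 and ran Cufflinks 2.1.1 on the Ensembl annotation to obtain the deposited FPKM. Non-coding regions were masked, and multi-read and fragment-bias corrections were on. Strand was not stated. Counts were not used here, and the depth of each library is not given in the sources used here, so no interval for counting error is printed.

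From the FPKM, log2 ratios with a pseudocount of 1 were computed for genes at 1 or more in either library with Python, numpy and pandas, and checked on simulated data. With 1 library a side, the planned fold threshold of 1.5 was used and no test was made. For 166 entries with a repeated symbol, lists used the one with the higher mean. The genes compared and the 39 gene lists were chosen with earlier results of these data known. Named genes were KIAA1324, genes named in the study's results, the 10 highest and 10 lowest ratios at an FPKM of at least 5, up to 5 genes a side listed at 0, and up to 4 called members of each list in each direction, or else its highest and lowest. Others, such as further members of the leading lists, were named after their values were seen, and a few genes that the rule names are not reported here. Alternatives were other pseudocounts, thresholds, filters and scalings, and a trend with transcript length and GC content.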

Additional observations from a re-analysis of the deposited data

How the results depend on the processing

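The counts of higher and lower genes were 172 and 220. They were 47 and 59 at 2-fold, 299 and 411 with a pseudocount of 0.1, 57 and 85 with a pseudocount of 5, and 104 and 129 among genes that reached an FPKM of 5 in either library. The median NF-kappa B ratio was 0.21 without a filter on low values. The cause was not tested beyond how each alternative is built, since fewer or more genes were tested or low genes were weighted differently. The other lead medians and that of all genes moved by less than 0.1 under each alternative run. The 3 scalings divided 3NQ by 1.01 to 1.03, gave 139 to 153 higher and 233 to 252 lower genes, and moved the share of higher calls from 43.9% to between 35.5% and 39.6%. Of 65 called named genes, 41 stayed called under every other pseudocount, scaling and the trend, and none changed sign. The 2-fold threshold and the other filters were not applied to single named genes in this count. DNAJB9 and ALG2 fell below 1.5-fold when 3NQ was scaled by the median of ratios, at 0.58 each. With a pseudocount of 5, 24 of the 65 were no longer called, these included, among them LTBP1 (-0.52), EGF (-0.25) and the genes given above with such a value. The histone median was -0.30 with a pseudocount of 0.1, below the cholesterol median of -0.28, and -0.03 once the trend with length and GC content, available for 11330 of 11526 genes, was removed, an alternative added after seeing the data. No paired analysis was possible because each group had 1 library.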

Other observations

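Further lists lay near the median of all tested genes, which was 0.02 on the log2 scale. Of all tested genes 3.40% were called. Listed autophagy genes had a median log2 ratio of 3NQ over labelled ΔTM of 0.05 over 31 tested members, with no call, from PIK3R4 (-0.23) to ATG2B (0.44). Outside the list MAP1LC3B2 was higher (1.26, and 0.75 with a pseudocount of 5) and ATG9B lower (-0.69, and -0.28, not called). Listed lysosomal genes had -0.02 over 42, with no call, from NPC2, a cholesterol carrier (-0.37), to IGF2R, the mannose 6-phosphate receptor (0.44). Outside that list CLCN7 (0.62) and LAMP3 (0.62) were higher and ATP6V1C2 (-0.68) lower, none of them called with a pseudocount of 5. These genes outside the lists were named after their values were seen. Matrix adhesion genes had 0.07 over 31, with no call, and THBS1, a matrix glycoprotein gene, was the highest (0.56) and COL4A5, a basement membrane collagen gene, the lowest (-0.53). Glycolysis and hypoxia genes had 0.00 over 34, with no call, from ADM (-0.57) to ANKRD37 (0.37). Cytosolic heat shock genes had 0.03 over 23, from HSPB1 (-0.41) to DNAJB1 (0.26). In the TGF-beta family list, LTBP1, a latent TGF-beta binding protein gene, was the single called gene of 28 and was lower in 3NQ (5.76 against 10.4 FPKM, -0.76, and -0.52 with a pseudocount of 5, where it was not called). Outside that list, named after their values were seen, INHBE (0.67) and PMEPA1 (0.77) were higher, but not with a pseudocount of 5 (0.23 and 0.53). Among 9 ERBB receptor and ligand genes, EGF was lower (0.355 against 1.38 FPKM, -0.81), but not with a pseudocount of 5 (-0.25), and it passed the filter on low values through the library labelled ΔTM alone. Gut lineage and mucin genes were mostly below that filter, with 7 of 41 tested and none called.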
